A study of Mus musculus with 5 samples.

Results

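Insulin signalling and glucose transport in fat cells were followed through 10 genes: Insr, Irs1, Irs2, Pik3r1, Akt1, Akt2, Foxo1, Pde3b, Slc2a4 and Slc2a1. They were chosen by name, and each was matched to the probe set whose single gene symbol in the platform annotation was that name. All 10 were found, each with 1 probe set, among 22206 probe sets that cover 19505 named genes. The RNA came from the 3T3-L1 line, mouse fibroblasts that differentiate into fat cells in culture, and each sample was hybridised to 1 Clariom S array. Cells of both groups spent 4 days in basal medium, 4 days with IBMX at 0.5 mM, dexamethasone at 1 µM and insulin at 5 µg/mL, 2 days in insulin alone and 1 day in basal medium. The exposed group (3 arrays) was then kept for 72 h in RPMI-1640 with 10% fetal bovine serum together with MM.1S cells, a human multiple myeloma line, behind a membrane with 0.4 µm pores. The control group (2 arrays) was kept in that medium alone for the same time. The protocols name insulin in the differentiation media and do not name it in this last medium. All samples are of 1 cell line, and nothing in the labels says that they came from separate cultures, so the p-values below measure a spread between samples that may be technical.

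Insulin binds its receptor, a tyrosine kinase encoded by Insr, which phosphorylates the adaptor proteins IRS1 and IRS2. These recruit phosphoinositide 3-kinase through its regulatory subunit, and the lipid it makes activates the AKT kinases. In fat cells AKT activity sends the transporter GLUT4 to the cell surface, restrains lipolysis through the phosphodiesterase PDE3B and keeps the transcription factor FOXO1 out of the nucleus. Most of these steps are controlled by phosphorylation and protein location, which an RNA array does not measure.

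None of the 10 transcripts passed the test between exposed and control arrays. Values are deposited log2 expression values, on which 1 unit is a 2-fold difference, and a gene was called at a Benjamini-Hochberg adjusted p under 0.05 from limma over all probe sets. Of the 10 genes, 0 were called higher and 0 lower, beside 0% of all probe sets in either direction. The lowest adjusted p of any probe set was 0.93. That value recurs below for genes with unlike unadjusted p-values and does not grade them. At an unadjusted p under 0.05 there were 0 of 10, beside 3.49% of all probe sets. The genes were split 4 higher and 6 lower in mean, with a median difference of -0.05 log2 units, beside -0.0004 over all probe sets. The largest difference in either direction was that of Irs1, at -0.23. The 95% interval lay within a 2-fold difference for all 10, as it did for 92.9% of all probe sets and for 96.1% of those at or above the median level. It did so for 9 of the 10, all but Akt1, when exposed array 2 or either control array was left out. All 10 lay above the median level, 4.81, which is not a detection limit. The lowest of the 10 was Slc2a4, at a mean of 5.81. Whether a low signal compressed any of the differences was not tested.

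Adipocyte markers were bright on average on every array, as was the preadipocyte marker Dlk1. Over 10 adipocyte markers, led by the fatty acid carrier gene Fabp4 and the lipoprotein lipase gene Lpl, the mean level was 10.03, 10.09 and 9.97 on the exposed arrays, in order of array number here and below, against 10.14 and 10.08 on the control arrays. Preadipocyte and fibroblast markers (8 measured, led by Dlk1 and Thy1) averaged 6.43, 6.42 and 6.56 on exposed arrays, against 6.52 and 6.58 on control arrays. Dlk1, a marker of undifferentiated cells, was at 10.44, 10.34 and 10.23 on exposed arrays, against 10.68 and 10.55 on control arrays. Signal levels of different probe sets do not give the share of cells that had differentiated. Markers of plasma and B cells, macrophages and skeletal muscle averaged between 3.53 and 3.92 on every array, although single genes were brighter. By mean over all arrays, Sdc1 (7.49) and Irf4 (4.30) led the 8 plasma and B cell genes. Cd14 (6.63) and Lyz2 (5.02) led the 9 macrophage genes, and Des (6.55) and Myog (4.16) the 9 muscle genes. Human RNA was not looked for, because the probes were designed for mouse. Exposed arrays 1 and 3 stood apart from the rest: 2350 and 2282 probe sets lay more than 0.5 log2 units from the mean of the other 4 arrays, compared with 1068 on exposed array 2, 1220 on control array 1 and 1660 on control array 2. For the 10 genes, the paralog pairs and the list medians, values without them are given where a result rests on them. Differences of single list genes were not computed with an array left out.

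Promoter sequences were available for 7 of the 10 genes in a RefSeq table of build GRCm38.p6, with Insr, Pde3b and Slc2a4 missing. Those of the 2 receptor substrate genes are shown because these paralogs carry the largest single difference of the 10 genes (Irs1) and its nearest relative (Irs2), and because both hold the same pair of motifs. Capitals mark CACGTG, the palindromic E-box core, and TGTTT, a forkhead core that FOXO proteins can bind; the 2 motifs overlap in Irs1 and lie next to each other in Irs2. Each stretch is on the minus strand and ends upstream of the transcription start, at chr1:82291499-82291604 for Irs1 and chr8:11008930-11009023 for Irs2.
Irs1: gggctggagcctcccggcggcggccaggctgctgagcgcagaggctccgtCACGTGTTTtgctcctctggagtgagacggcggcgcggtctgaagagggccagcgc
Irs2: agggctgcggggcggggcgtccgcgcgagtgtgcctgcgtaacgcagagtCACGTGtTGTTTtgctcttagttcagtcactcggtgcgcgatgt
The E-box begins 115 bases before the start in Irs1 and 44 bases before it in Irs2, and the longest runs that both stretches share are 2 of 10 bases, GTCACGTGTT with the E-box and TGTTTTGCTC with the forkhead core. In the 250 bases before each of 32851 RefSeq starts, searched on both strands, CACGTG was present in 6.02%, TGTTT in 46.4% and both in 2.37%. A TGTTT within 10 bases of a CACGTG, a spacing chosen after these sequences were read, was present in 0.317%. None of the other 5 genes with an entry held a CACGTG in that window. A match of letters is a description, and neither binding nor promoter activity was measured.

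**Figure D1:**
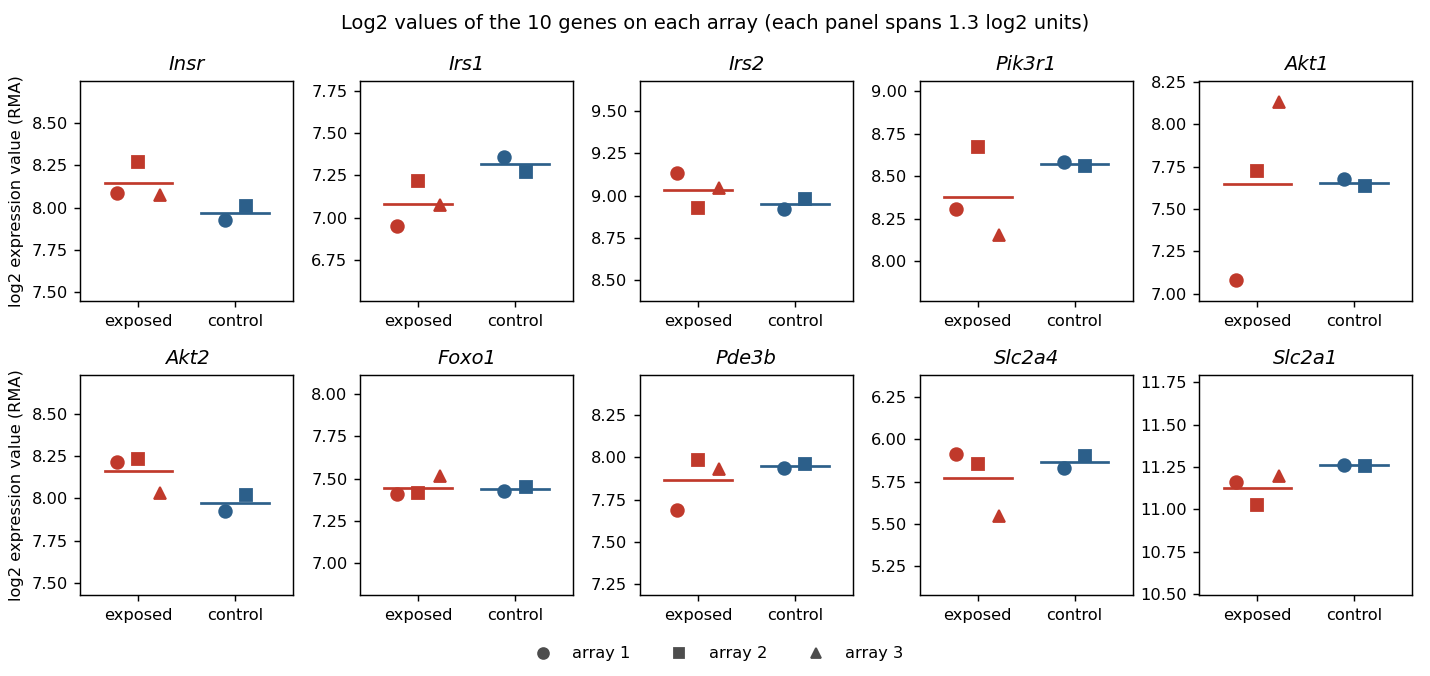
Log2 expression value of each of the 10 genes on each array, with exposed arrays (red) left of control arrays (blue), symbols for the array number and lines for group means. Control arrays lie within 0.095 log2 units of each other for every gene, and the 3 exposed arrays spread widest for Akt1, over 1.05 units.

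The receptor transcript was somewhat higher in mean on exposed arrays. Insr read 8.09, 8.27 and 8.07 on the exposed arrays, against 7.92 and 8.01 on the control arrays. Exposed array 2 was the highest and the groups did not overlap, although exposed arrays 1 and 3 were nearer to control array 2 than to exposed array 2. The means were 8.14 ± 0.11 (SD, n = 3) and 7.97 ± 0.06 (SD, n = 2), a difference of 0.18 with a 95% interval of -0.14 to 0.50 (limma adjusted p 0.93). As a fold, exposed over control was 1.13 (0.906 to 1.41). The difference was 0.11 without exposed array 2.

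The 2 substrate adaptors lay on opposite sides of 0. Irs1, which carries the insulin signal from receptor to PI 3-kinase, read 6.95, 7.22 and 7.08 on exposed arrays, against 7.36 and 7.27 on control arrays. Every exposed array was below both control arrays, with exposed array 1 the lowest and exposed array 2 within 0.1 units of control array 2. The difference was -0.23 (-0.56 to 0.10), a fold of 0.852 (0.676 to 1.07), at a limma adjusted p of 0.93. It was -0.17 without exposed array 1 and -0.23 without exposed array 3. Irs2, the paralog that FOXO1 is known to induce in liver, read 9.13, 8.93 and 9.05 on exposed arrays, against 8.92 and 8.98 on control arrays. The groups overlapped, since exposed array 2 lay at the level of control array 1. Its difference was 0.08 (-0.23 to 0.40; limma adjusted p 0.95). It was 0.035 without exposed array 1, 0.054 without control array 1 and 0.14 without exposed array 2.

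Pik3r1 encodes the p85α regulatory subunit of PI 3-kinase and shorter products of the same gene, which 1 probe set does not separate. It read 8.30, 8.67 and 8.15 on exposed arrays, against 8.58 and 8.56 on control arrays. The exposed arrays lay on both sides of the controls, with exposed array 2 above and the other 2 below. The difference was -0.19 (-0.63 to 0.25; limma adjusted p 0.93). It was -0.08 without exposed array 3 and -0.34 without exposed array 2.

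Among the kinases, Akt1 varied far more between exposed arrays than any other of the 10 genes. Akt1, the widely expressed AKT kinase, read 7.08, 7.72 and 8.13 on the exposed arrays, against 7.68 and 7.63 on control arrays. The lowest and the highest of the 5 values were both from exposed arrays, and exposed array 2 was close to the controls. The exposed range of 1.05 was matched or exceeded by 1.82% of the brighter probe sets (mean at or above the median of all), whose median exposed range was 0.325. Akt1 was picked as the widest of the 10, and that share makes no allowance for the choice. The group means were 7.65 ± 0.53 (SD, n = 3) and 7.66 ± 0.03 (SD, n = 2), a difference of -0.01 with the widest interval of the 10 genes, -0.74 to 0.72 (limma adjusted p 0.999). Without exposed array 1 the difference was 0.27, and without exposed array 3 it was -0.25. The same 2 arrays stood apart over all probe sets, and their part in the Akt1 spread was not tested. Akt2, the AKT kinase required for insulin-stimulated glucose uptake in fat cells, did not share that spread. It read 8.21, 8.23 and 8.03 on exposed arrays, against 7.92 and 8.02 on control arrays. The groups did not overlap, by a margin of less than 0.1 units between exposed array 3 and control array 2. The difference was 0.19 (-0.13 to 0.51), a fold of 1.14 (0.913 to 1.43), at a limma adjusted p of 0.93. It was 0.16 without exposed array 1 and 0.25 without exposed array 3.

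The 2 direct AKT substrates of the set were at similar levels in both groups, and neither passed the test. Foxo1, the transcription factor that insulin shuts out of the nucleus, read 7.41, 7.42 and 7.52 on exposed arrays, against 7.43 and 7.45 on control arrays. All 5 values lay within 0.11 units, the narrowest range of the 10 genes, and the groups overlapped. The difference was 0.01 (-0.29 to 0.30), so a change of the Foxo1 array value beyond a fold of 0.82 to 1.23 lay outside the interval. Pde3b, the phosphodiesterase that lowers cyclic AMP when insulin acts, read 7.69, 7.99 and 7.93 on exposed arrays, against 7.94 and 7.96 on control arrays. Exposed array 1 was the lowest and the other 4 values lay close together. The difference was -0.08 (-0.43 to 0.27; limma adjusted p 0.95), and 0.01 without exposed array 1.

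Neither of the 2 glucose transporters passed the test. Slc2a4 encodes GLUT4, which insulin moves from vesicles to the surface of fat and muscle cells. It read 5.92, 5.86 and 5.55 on exposed arrays, against 5.83 and 5.90 on control arrays. Exposed array 3 was the lowest and the groups overlapped. The difference was -0.10 (-0.48 to 0.29; limma adjusted p 0.95), and 0.02 without exposed array 3. On that array the lipid droplet genes Plin1 and Cidec and the adipogenic factor gene Cebpa were also at their lowest. Plin1 was at 9.08 there, against 9.77 to 9.90 on the other arrays, Cidec at 9.80 against 10.07 to 10.18, and Cebpa at 5.88 against 6.24 to 6.40. Pparg was also at its lowest there, at 10.95, but its values on all arrays lay within 0.10 units. Adipoq was at its highest there, at 11.73. The remaining adipocyte markers were not at their lowest: Fabp4 at 12.37, Lpl at 12.13, Cd36 at 9.95, Lipe at 9.89 and Dgat2 at 7.87. Over all probe sets exposed array 3 also stood apart, and the part of this in the Slc2a4 value was not tested. The part of the adipocyte markers in that value was not tested either. In RNA from whole cultures, fewer adipocytes and less RNA per adipocyte cannot be told apart.

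Slc2a1 encodes GLUT1, the transporter of basal glucose uptake. It read 11.16, 11.02 and 11.20 on exposed arrays, against 11.26 and 11.26 on control arrays. Every exposed array was below both controls, with exposed array 2 the lowest. The means were 11.13 ± 0.09 (SD, n = 3) and 11.26 ± 0.003 (SD, n = 2), a difference of -0.13 (-0.44 to 0.17; limma adjusted p 0.93), or a fold of 0.912 (0.738 to 1.13). It was -0.08 without exposed array 2, -0.15 without exposed array 1 and -0.17 without exposed array 3.

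Exposed and control arrays did not overlap for 4 of the 10 genes: Insr and Akt2 were higher, and Irs1 and Slc2a1 lower, on every exposed array. Over all probe sets 17.3% did not overlap, 8.5% with exposed arrays higher and 8.84% lower, and no test was made of the count among 10 genes chosen together. Averaged over the 10 genes, the deviation from each gene's mean was -0.08, 0.06 and -0.01 on the exposed arrays, against 0.01 and 0.03 on the controls. By this mean the exposed arrays lay on both sides of the controls. Half-widths of the 95% interval were 0.29 for Foxo1 to 0.73 for Akt1, with a median of 0.33, compared with 0.41 over all probe sets. Differences smaller than these half-widths could not be told from 0 with 5 arrays. The intervals are not adjusted for the number of probe sets, so larger differences can also fail the adjusted test.

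**Figure D2:**
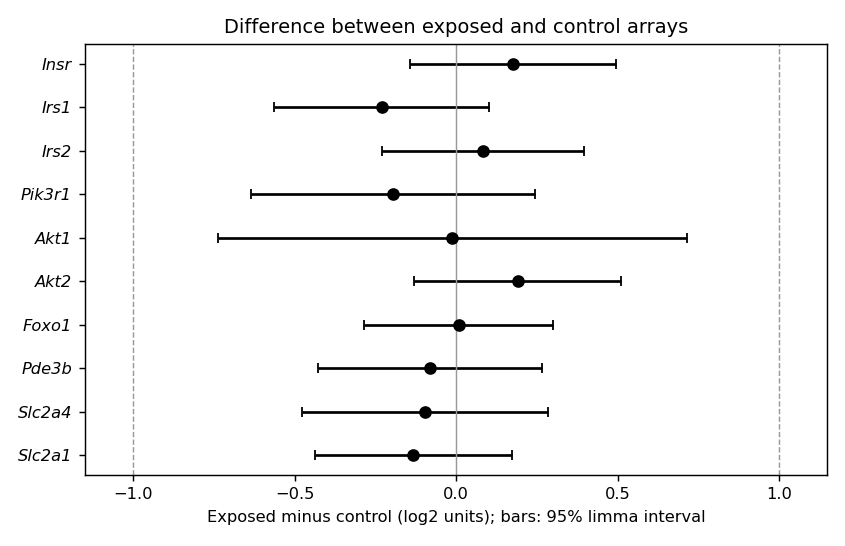
Difference between exposed and control arrays (log2 units) for each gene, with 95% limma intervals from 3 exposed and 2 control arrays and dashed lines at a 2-fold difference. Every interval includes 0 and stays inside the dashed lines, and that of Akt1 is the widest.

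**Figure D3:**
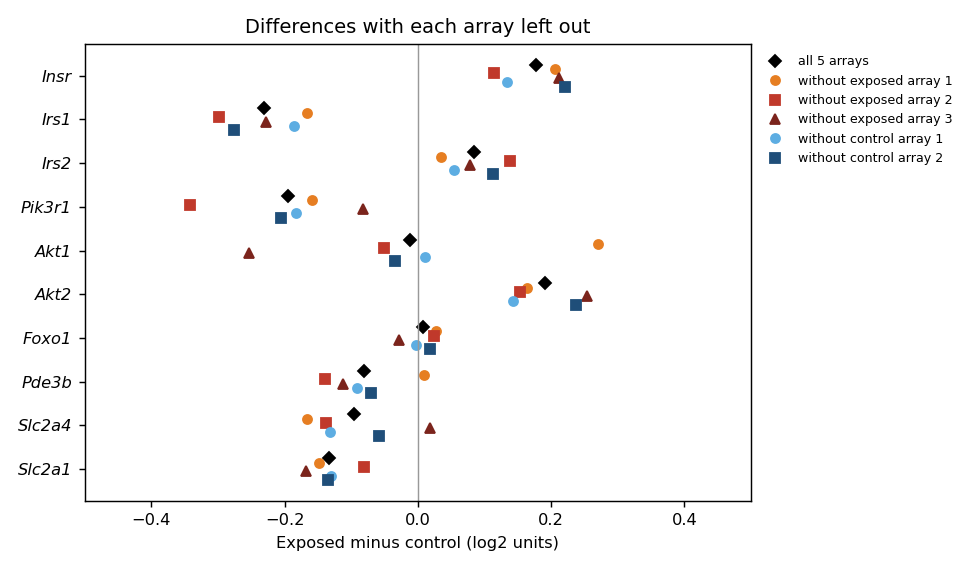
The same difference (log2 units) with all 5 arrays (black) and with each array left out in turn. Insr, Irs1, Irs2, Pik3r1, Akt2 and Slc2a1 stay on 1 side of 0, while Akt1 lies between -0.25 and 0.27.

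Signal strengths of different probe sets do not rank the genes, but the change of a paralog pair relative to each other can be compared between groups. Irs1 minus Irs2 was -2.18, -1.71 and -1.97 on exposed arrays, against -1.56 and -1.71 on control arrays. Exposed arrays 1 and 3 were lower than both controls, and exposed array 2 lay between them. The pair differed by -0.31 between exposed and control arrays (exact two-sided permutation p 0.3, adjusted 0.9 over 3 pairs). Akt2 minus Akt1 was 1.13, 0.51 and -0.10 on exposed arrays, against 0.24 and 0.38 on control arrays. Exposed arrays 1 and 3 were at the 2 ends, as for Akt1, and the difference of 0.20 had an exact permutation p of 0.7 (adjusted 1). Slc2a4 minus Slc2a1 was -5.24, -5.17 and -5.65 on exposed arrays, against -5.43 and -5.35 on control arrays. The controls lay inside the exposed range, and the difference was 0.04 (exact permutation p 1, adjusted 1). With 10 ways to split 5 arrays, the smallest p this test can give is 0.1.

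**Figure D4:**
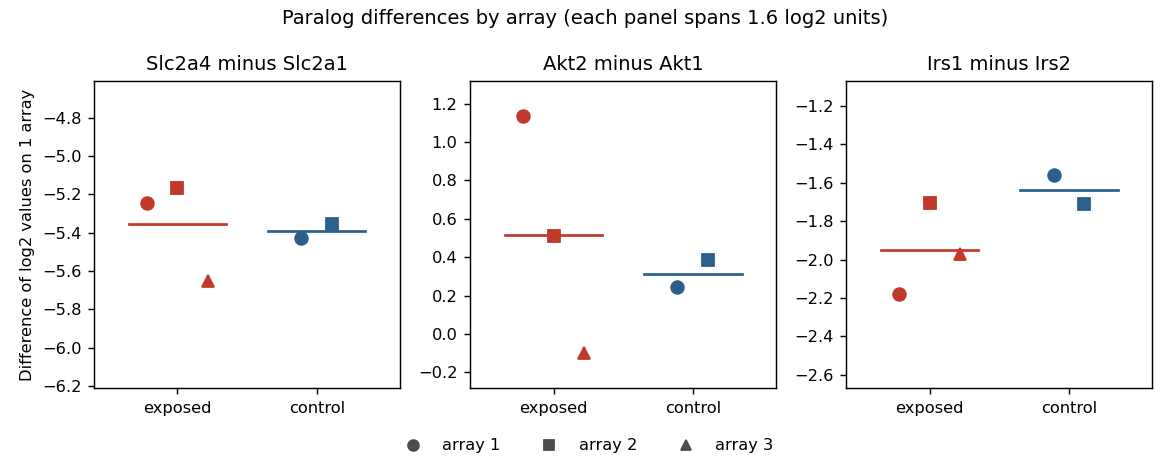
Difference of the log2 values of 2 paralogs on the same array, with exposed arrays (red) left of control arrays (blue), symbols for the array number and lines for group means. The groups overlap in all 3 panels, and Akt2 minus Akt1 spreads from -0.10 to 1.13 over the exposed arrays.

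Other genes of the pathway were likewise not called. Of 104 genes measured in 6 lists, 0 passed the adjusted threshold, 46 were higher and 58 lower in mean, and the median difference was -0.02. At an unadjusted p under 0.05 there were 2, or 1.92%, beside 3.49% of all probe sets. These were Grb2 and Slc2a10. Groups did not overlap for 7 higher and 12 lower genes, or 18.3%, beside 17.3% of all probe sets. By list, higher and lower, these were 0 and 3 for receptor and PI3K, 1 and 2 for AKT and mTOR targets, and 0 and 4 for negative regulators. They were 2 and 2 for GLUT4 traffic, 0 and 1 for other carriers and hexokinases, and 4 and 0 for FOXO1 targets. These splits were not tested.

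Genes of the receptor and PI3K list were 5 higher and 10 lower (median -0.11). That median was -0.020 without exposed array 1, -0.036 without exposed array 3 and -0.016 without control array 1. Grb2, the adaptor that links receptor tyrosine kinases to RAS, read 6.49, 6.57 and 6.49 on exposed arrays, against 7.06 and 7.02 on control arrays. Both groups were tight and did not overlap, with a difference of -0.53 (-0.82 to -0.24) that did not pass (limma p 0.0042, adjusted p 0.93). Irs3, a rodent IRS paralog, read 4.81, 4.13 and 4.14 on exposed arrays, against 3.68 and 4.35 on control arrays. The groups overlapped, and the difference of 0.35 (-0.36 to 1.06) was set mostly by exposed array 1 and control array 1.

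Downstream of AKT, 8 genes of the AKT and mTOR list were higher and 11 lower (median -0.01, and -0.065 without control array 1 and 0.065 without control array 2). Deptor, an inhibitor of mTOR, differed by -0.32 (-0.81 to 0.17), and Foxo3, another FOXO factor, by 0.31 (-0.31 to 0.93). Negative regulators were 9 higher and 7 lower (median 0.03, and -0.09 without exposed array 1, -0.03 without exposed array 3 and -0.04 without control array 2). Ide, the insulin-degrading enzyme, read 6.51, 6.90 and 7.00 on exposed arrays, against 7.34 and 7.03 on control arrays. Exposed array 3 and control array 2 were almost equal, and the difference was -0.38 (-0.85 to 0.09). The protein kinase C gene Prkcq, at a dim mean of 3.44 on exposed and 3.81 on control arrays, differed by -0.37 (-0.76 to 0.02).

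Genes of GLUT4 traffic were 8 higher and 13 lower (median -0.07, and -0.0027 without exposed array 1). Stxbp4, whose product binds the syntaxin that GLUT4 vesicles dock on, read 5.46, 5.93 and 6.25 on exposed arrays, against 6.26 and 6.40 on control arrays. Exposed array 1 was the lowest, exposed array 3 was almost level with control array 1, and the difference was -0.45 (-1.04 to 0.13). Stx4a, that syntaxin, read 8.65, 8.85 and 8.50 on exposed arrays, against 8.93 and 8.91 on control arrays, a difference of -0.25 (-0.61 to 0.11). Every exposed value of both genes was below both controls, and neither passed (limma adjusted p 0.93 for each).

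Other glucose carriers and hexokinases were 6 higher and 7 lower (median -0.02, and -0.16 without exposed array 3, -0.06 without exposed array 2 and 0.0065 without exposed array 1). Slc2a10, which encodes GLUT10, read 4.28, 3.77 and 3.84 on exposed arrays, against 4.48 and 4.71 on control arrays. All exposed values were lower, and the difference of -0.63 (-1.11 to -0.16), the largest of the 6 lists, did not pass (limma p 0.017, adjusted p 0.93). Its level was below the median of all probe sets in both groups. Slc5a1, a sodium-coupled glucose carrier of gut and kidney, was dim at 2.14 on exposed and 2.48 on control arrays and differed by -0.34 (-0.76 to 0.09).

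FOXO1 target genes were evenly split, 10 higher and 10 lower (median 0.01, and -0.03 without exposed array 2 and 0.05 without exposed array 3). Pdk4, which inhibits pyruvate dehydrogenase, read 7.04, 6.74 and 7.08 on exposed arrays, against 6.72 and 6.67 on control arrays. The groups did not overlap, although exposed array 2 was near the controls, and the difference was 0.26 (-0.11 to 0.63). The ubiquitin ligase gene Fbxo32 differed by -0.32 (-0.96 to 0.32), with exposed array 3 at 4.67 and the other 4 arrays between 5.46 and 5.57. Exposed arrays 1 and 2 and control array 2 held exactly the same Fbxo32 value. Such exact ties between arrays were present for 27.2% of all probe sets (6038) and for 0 of the 10 genes. Among the genes named from the pathway lists they were present for 3: Fbxo32, Deptor and Slc5a1. Neither gene passed (limma adjusted p 0.93 for each).

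**Figure D5:**
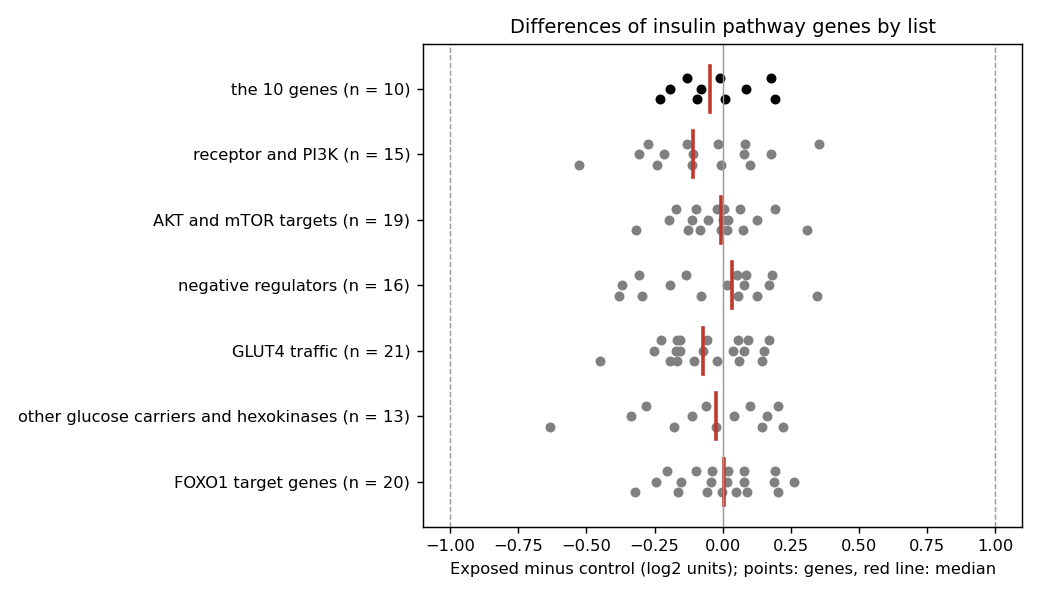
Difference between exposed and control arrays (log2 units) for the 10 genes (black) and for the genes of 6 pathway lists (grey), with red lines at the medians and dashed lines at a 2-fold difference. List medians lie between -0.11 and 0.03, and no gene reaches a 2-fold difference.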

How the data were processed

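RNA of 5 samples was measured on 1 array each. The authors deposited log2 expression values per probe set, which the submitters' processing notes credit to RMA and Partek; their versions and the annotation build are not given in the sources used here. Groups and replicate numbers came from the labels. The 10 genes and all lists were chosen with earlier results of these data known.

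The groups were set against each other by limma 3.58.1 under R 4.3.3 (moderated two-sided test, no covariates, 3 residual and 3.17 prior degrees of freedom), over all 22206 probe sets without a filter, with Benjamini-Hochberg adjustment. The code was tested on simulated data. Where a gene had several probe sets, that of highest mean stood for it. The 6 pathway lists held 116 names: 104 genes were measured, 2 names were older symbols of listed genes and 10 were not found and are not analysed here. Of 49 marker names, 44 were measured. All 10 genes were named, and from each list up to 4 called genes or, with none called, the 2 of largest difference. Plin1, Cidec, Cebpa, Adipoq, Pparg, Cd36, Lipe, Dgat2 and Dlk1 were named after their values were seen. Paralog pairs were compared by an exact permutation test. Detection calls were not used here, and the number of arrays limits precision. No batch is given in the labels.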

Additional observations from a re-analysis of the deposited data

How the results depend on the processing

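Under 13 alternatives, 0 of the 10 genes and 0 probe sets were called, and 0 of the 10 had an unadjusted p under 0.05; the lowest adjusted p of the 10 genes was 0.85. Insr, Irs1, Irs2, Pik3r1, Akt2 and Slc2a1 kept their sign throughout, but not every alternative could change it. An intensity trend, no moderation and a filter at the median level alter the test and leave each difference as it was. Averaging all probe sets of a gene changes nothing here, since each of the 10 genes has 1 probe set. With 1 array left out, Akt1 ranged from -0.25 to 0.27, Foxo1 from -0.028 to 0.028, Pde3b from -0.14 to 0.0098 and Slc2a4 from -0.17 to 0.018, and the count within a 2-fold difference from 9 to 10. It was 9, with Akt1 outside, without exposed array 2, without control array 1, without control array 2 and with no moderation. Without a control array, the lone control was assumed to vary like the exposed arrays. With array weights Akt1 was at 0.0101 and Foxo1 at -0.000797, with arrays centred on their medians Foxo1 was at -0.0100, and with quantile normalization again Akt1 was at 0.0253. The count of probe sets at an unadjusted p under 0.05 (776) was 362 among those at or above the median level, since fewer were tested. It lay between 760 and 1378 when single arrays were dropped, reaching 1378 without control array 1.

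With the replicate number as a block, which leaves exposed array 3 without a partner, Foxo1 was at -0.028, Slc2a4 at 0.018 and Akt1 at -0.25, with 0 calls. The differences under this block are the same as those without exposed array 3. The deviations of same-numbered arrays correlated at -0.01 and -0.03, which covers this 1 way of pairing only. The sample titles carry other numbers, 8, 16 and 24 for the exposed arrays and 14 and 22 for the controls. Pairing by those numbers was not tested. With 1 array left out, list medians ranged from -0.16 to -0.016 for receptor and PI3K genes, -0.065 to 0.065 for AKT and mTOR targets, -0.090 to 0.073 for negative regulators, -0.099 to -0.0027 for GLUT4 traffic, -0.16 to 0.0065 for other carriers and hexokinases and -0.025 to 0.045 for FOXO1 targets. Pair differences ranged from -0.44 to -0.20 for Irs1 minus Irs2, -0.11 to 0.51 for Akt2 minus Akt1 and -0.06 to 0.19 for Slc2a4 minus Slc2a1.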
